A study of Mus musculus with 4 samples.

Results

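The genes described here are 9 pattern-recognition genes of mouse neutrophils, namely the 7 Toll-like receptors Tlr1, Tlr2, Tlr4, Tlr6, Tlr7, Tlr9 and Tlr13 and the 2 LPS co-receptors Cd14 and Ly96. They were found by their symbols in the array annotation, which gave 14 probe sets of 45101. All 9 genes were on the array, out of 18193 genes with a symbol of their own. Bone marrow neutrophils had been enriched on magnetic beads from miR-125a-/- mice and from wild-type miR-125a+/+ mice, both of strain C57BL/6 and 8 weeks old. The 4 groups were knockout cells after 3 h with lipopolysaccharide (LPS), unstimulated knockout cells, wild-type cells after 3 h with LPS and unstimulated wild-type cells. RNA of 3 experiments was pooled for each group and hybridised to 1 Affymetrix array, so no value has a replicate, no test was run and precision is limited by having so few arrays. All cells had been in serum-containing medium; the labels leave unclear if the unstimulated cells stayed in it for 3 h, and do not describe how the allele was made.

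Toll-like receptors are membrane proteins that bind molecules of microbes and signal through adaptors of the MyD88 and TRIF families. TLR1, TLR2, TLR4 and TLR6 work at the cell surface, where TLR2 pairs with TLR1 or TLR6 to bind bacterial lipopeptides. TLR7, TLR9 and TLR13 sit in endosomes and bind single-stranded RNA, unmethylated CpG DNA and bacterial ribosomal RNA. LPS reaches its receptor by way of CD14, which hands it to MD-2, the product of Ly96, and MD-2 carries it bound to TLR4. Neutrophils use these receptors to start cytokine production and to prolong their survival on contact with bacteria.

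The microRNA that the knockout cells lack is shown because its seed, bases 2 to 8 (in capitals), is the stretch by which a microRNA chooses its targets. The sequences are RefSeq's for build GRCm38.p6, where miR-125a-5p lies at chr17:17830817-17830840 on the plus strand. Of 1738 mature mouse entries, 6 have the seed of the 5p strand, in 5 different sequences, among them miR-125b-5p from 2 genes. The 3p strand of miR-125a has a seed of its own.
mmu-miR-125a-5p: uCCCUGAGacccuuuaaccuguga
mmu-miR-125b-5p: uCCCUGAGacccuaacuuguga
mmu-miR-351-5p: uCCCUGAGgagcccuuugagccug
mmu-miR-125a-3p: aCAGGUGAgguucuugggagcc

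Values are log2 signals of the MAS5 algorithm. A signal floor was set at log2 6.80, the 60th percentile of all values. Of the 9 genes, 8 had a probe set above it on all 4 arrays, and Tlr9, the CpG DNA receptor, lay below it on every array. A gene was called where its brightest probe set differed at least 2-fold, a log2 difference of 1, and where 1 of the 2 values lay at the floor the difference is given as a lower bound. A signal is not comparable between probe sets, so the genes are not ranked by level, and fewer cells expressing a gene cannot be told apart from less RNA per cell. The neutrophil label was checked against 11 marker genes with a probe set here, and all 11 lay above the floor on each array. Their summed unlogged signal was 336634 and 311569 on the LPS and unstimulated knockout arrays and 298363 and 283792 on the LPS and unstimulated wild-type arrays. Of the 11, 1 was called after LPS, in knockout cells, the chemokine receptor Cxcr2, with -1.11 there and -0.62 in wild-type cells. No probe set carried the name Mir125a, so the genotype labels were not checked.

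**Figure D1:**
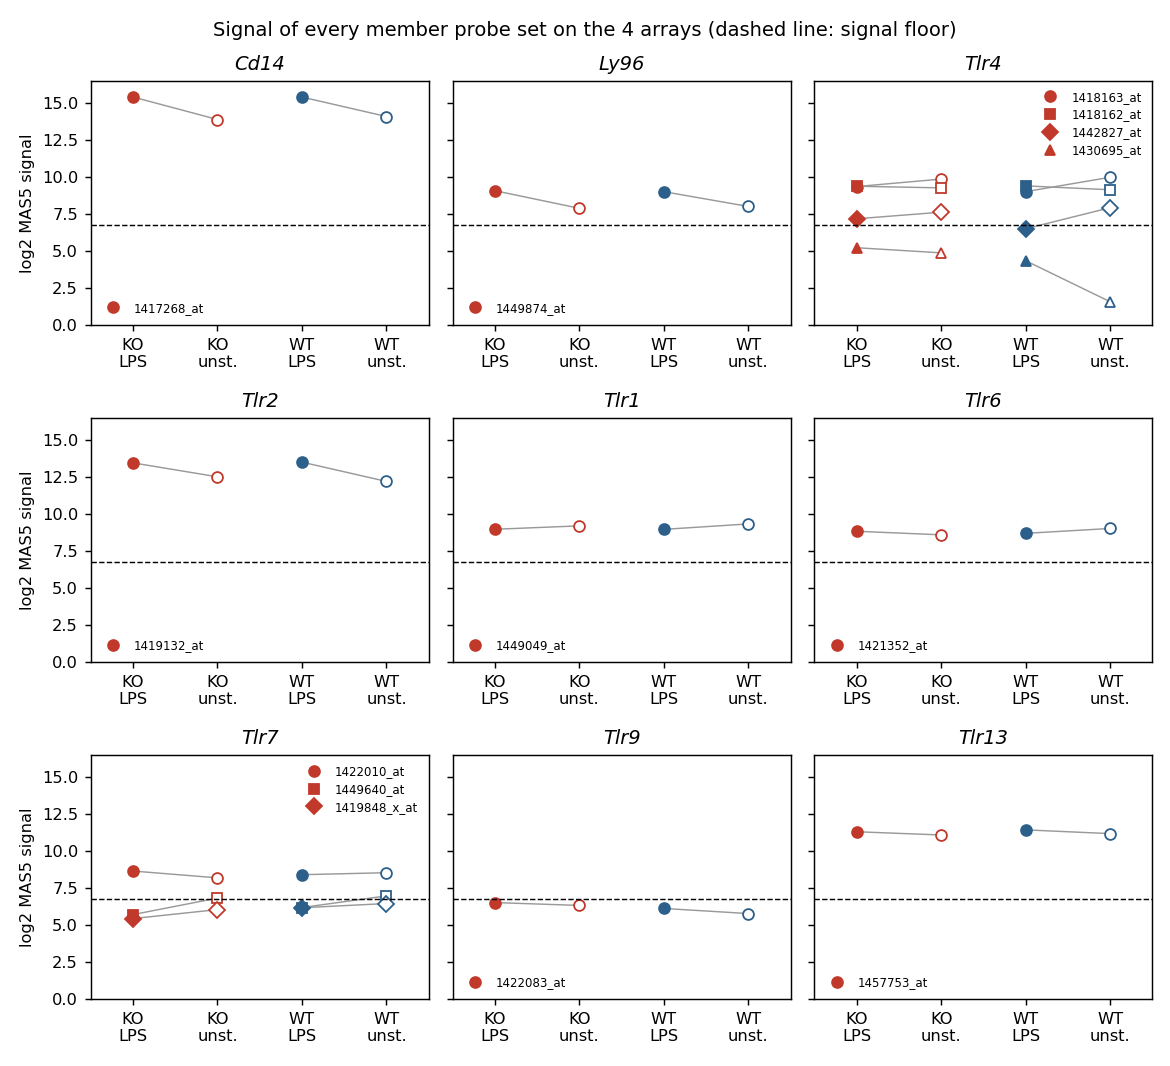
Log2 MAS5 signal of each of the 14 probe sets on the 4 arrays (1 point per array; red, knockout; blue, wild type; filled, LPS; open, unstimulated). Cd14, Ly96 and Tlr2 stand higher on both LPS arrays, Tlr9 lies under the dashed floor of 6.80 on all 4, and the probe sets of Tlr4 do not run the same way.

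The first question was how the receptors that detect LPS and its bacterial companions differed after LPS. If the unstimulated cells were not kept in medium for 3 h, an LPS difference cannot be told apart from one of culture. After LPS both co-receptors were at least 2-fold higher in knockout and in wild-type cells, and Tlr2 was in wild-type cells. In their brightest probe sets the other Toll-like receptors measured differed by less than 2-fold in either genotype, while a dimmer Tlr4 probe set had a bound past 2-fold in wild-type cells. In knockout cells 2 of the 8 measured genes were called higher and 0 lower, where 6.62% of all 9578 measured genes were higher and 7.99% lower. In wild-type cells 3 of 8 were called higher and 0 lower, where 7.29% of 9507 genes were higher and 9.69% lower. The median difference of the 8 genes was 0.35 in knockout and 0.06 in wild-type cells, against -0.05 and -0.03 for all measured genes.

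Cd14, the membrane-anchored carrier that delivers LPS to the receptor complex, had a log2 signal of 15.42 after LPS and 13.90 unstimulated in knockout cells, and of 15.42 after LPS and 14.10 unstimulated in wild-type cells. Both LPS arrays stood above both unstimulated arrays, and with the deposited scaling the 2 LPS values were nearly equal. The difference was 1.52 (2.87-fold) in knockout cells, rank 328 from the top of 9578 genes, and 1.32 (2.49-fold) in wild-type cells, rank 441 of 9507. The highest value of any probe set was 16.20 on the knockout LPS array and 15.84 on the wild-type LPS array, so Cd14 lay near the upper end of the scale after LPS, and any compression there was not tested.

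Ly96, which encodes the LPS-binding protein MD-2, had 9.09 after LPS and 7.90 unstimulated in knockout cells, and 9.02 after LPS and 8.02 unstimulated in wild-type cells. The LPS arrays were again both above the unstimulated ones. The difference of 1.19 in knockout cells (2.29-fold) ranked 486 of 9578. That of 1.001 in wild-type cells (2.001-fold) was the lowest of the 693 genes called higher there, so the call rests on the threshold. With the floor raised to the 75th percentile the unstimulated signals of Ly96 lay under it, which left bounds of 0.55 in knockout and 0.48 in wild-type cells.

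Tlr4, the signalling chain of the LPS receptor, had 4 probe sets, which did not run together. The brightest, 1418163_at, had 9.37 after LPS and 9.87 unstimulated in knockout cells, and 9.02 after LPS and 10.00 unstimulated in wild-type cells, differences of -0.51 and -0.97. Probe set 1442827_at had the same direction, with -0.44 in knockout cells and a bound of -1.14 in wild-type cells, where its LPS signal of 6.51 lay under the floor. Probe set 1418162_at, which the annotation ties to the same sequence record as the brightest, ran the other way, with 0.11 in knockout and 0.26 in wild-type cells. Its log2 signals were 9.39 after LPS and 9.28 unstimulated in knockout cells, and 9.41 after LPS and 9.15 unstimulated in wild-type cells. The last, 1430695_at, stayed under the floor on all 4 arrays, with log2 values from 1.58 to 5.23. Tlr4 therefore has no single direction after LPS on these arrays: 2 of the 3 probe sets that reached the floor were lower in both genotypes and 1 was higher.

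Tlr2, the lipopeptide receptor that pairs with TLR1 or TLR6, had 13.48 after LPS and 12.54 unstimulated in knockout cells, and 13.53 after LPS and 12.22 unstimulated in wild-type cells. Both LPS values exceeded both unstimulated ones, and the genotypes were closer after LPS than before it. The difference was 0.94 (1.92-fold) in knockout cells, just short of the call, and 1.31 (2.47-fold) in wild-type cells. Its partner genes, which neighbour each other on chromosome 5 in the reference gene table, did not share this difference. Tlr1 had 8.99 after LPS and 9.22 unstimulated in knockout cells, and 8.98 after LPS and 9.35 unstimulated in wild-type cells, differences of -0.23 and -0.37. Tlr6 had 8.86 after LPS and 8.61 unstimulated in knockout cells, and 8.72 after LPS and 9.05 unstimulated in wild-type cells, differences of 0.24 and -0.33. Relative to the median of all measured genes the Tlr6 difference in knockout cells was 0.29 with the deposited scaling and 0.24 when the poly-A spike-in controls set the scale. These are close by construction, since the poly-A scale moves every gene of an array by the same amount. Not taken relative to that median, the Tlr6 differences on the poly-A scale were -0.37 in knockout and -0.90 in wild-type cells. The knockout sign therefore turned there.

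The promoter of Tlr2 is shown because it is the only called gene of the 9 with a window in the RefSeq promoter table, and that of Tlr13 because it differed little after LPS. Windows run from 250 bases before to 50 bases after a transcript's start, and 5 of the 9 genes had them (Tlr1, Tlr2, Tlr6, Tlr9 and Tlr13, with 7 windows). Both strands were searched for the NF-kB consensus, for the PU.1 core GAGGAA and for the AP-1 site TGANTCA; all matches are in capitals and none overlaps a match of another motif. The Tlr2 window, chr3:83841559-83841858 on the minus strand of GRCm38.p6, matched the NF-kB consensus at -173 and, overlapping it by all but 1 base, at -172, and again at -8. It was the only one of the 7 windows with that match, which 4.51% of all 32851 windows of this length hold. The Tlr13 window, chrX:106143025-106143324 on the plus strand, held the PU.1 core at -83, as did windows of Tlr1 and Tlr9, against 28.3% of all windows. The AP-1 site was in 1 window, that of Tlr9, against 7.81% of all windows. A match is a run of letters and not a measured binding site.
Tlr2: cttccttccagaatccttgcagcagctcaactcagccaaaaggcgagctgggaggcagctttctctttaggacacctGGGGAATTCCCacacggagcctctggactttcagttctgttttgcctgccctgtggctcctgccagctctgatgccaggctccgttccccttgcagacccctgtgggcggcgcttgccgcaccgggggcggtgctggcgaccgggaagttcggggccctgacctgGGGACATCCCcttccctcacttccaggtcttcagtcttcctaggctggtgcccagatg
Tlr13: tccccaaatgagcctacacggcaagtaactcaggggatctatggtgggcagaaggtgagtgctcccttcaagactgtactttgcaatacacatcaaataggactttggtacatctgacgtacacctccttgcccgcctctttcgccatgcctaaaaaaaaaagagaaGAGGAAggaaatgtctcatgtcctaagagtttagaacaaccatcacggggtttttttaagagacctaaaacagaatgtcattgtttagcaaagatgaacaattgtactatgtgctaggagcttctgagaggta

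The endosomal receptors differed little. Tlr13, the sensor of bacterial ribosomal RNA, had 11.33 after LPS and 11.11 unstimulated in knockout cells, and 11.46 after LPS and 11.21 unstimulated in wild-type cells, differences of 0.22 and 0.25. Relative to the median of all measured genes they were 0.27 and 0.29, and 0.22 and 0.23 on the poly-A scale, which are close by construction. Not taken relative to that median, the Tlr13 differences on the poly-A scale were -0.39 and -0.32, so their sign turned there. Tlr7, the sensor of single-stranded RNA, had in its brightest probe set 8.68 after LPS and 8.22 unstimulated in knockout cells, and 8.43 after LPS and 8.56 unstimulated in wild-type cells. Its differences were 0.46 in knockout and -0.14 in wild-type cells. Relative to the median of all measured genes they were 0.51 and -0.10, and under quantile normalization 0.64 and 0.075, so that the wild-type sign turned there. Not taken relative to that median, the Tlr7 differences on the poly-A scale were -0.15 and -0.71, so that the knockout sign turned. Its second probe set, 1449640_at, lay above the floor on the unstimulated arrays alone (6.848 in knockout and 6.998 in wild-type cells), and the third, 1419848_x_at, on none. The second gave bounds of -0.05 in knockout and -0.20 in wild-type cells, lower after LPS in both genotypes, so the probe sets had opposite signs in knockout cells. Tlr9 had 6.55 after LPS and 6.35 unstimulated in knockout cells, and 6.15 after LPS and 5.80 unstimulated in wild-type cells, all under the floor, so no difference was taken.

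**Figure D2:**
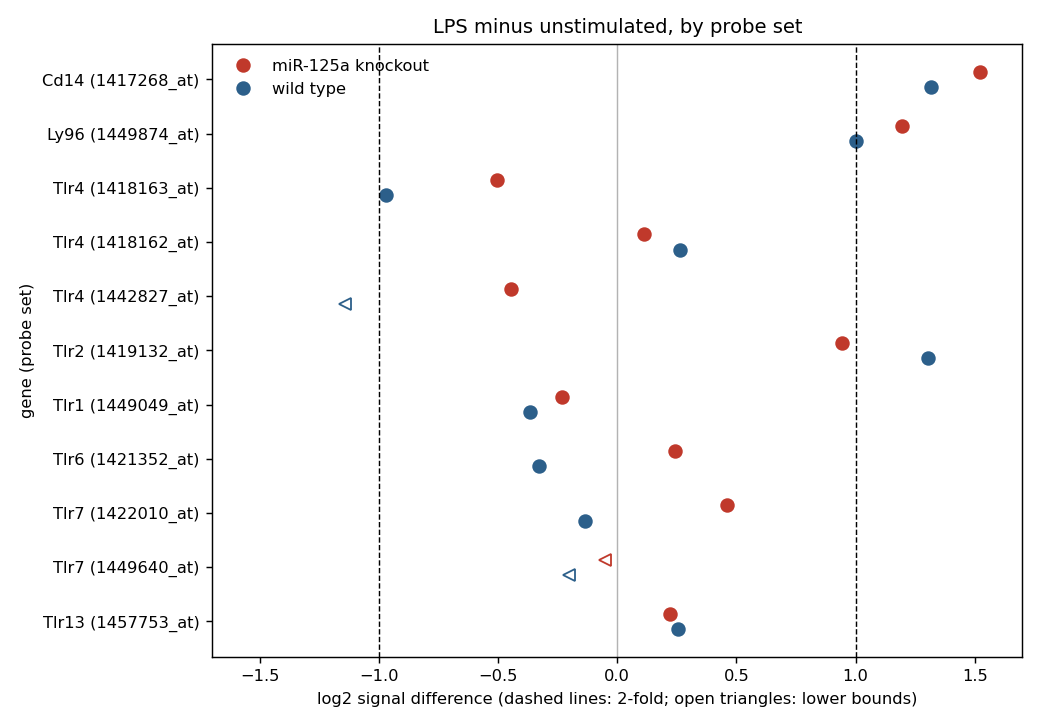
Log2 signal difference, LPS minus unstimulated, of the 11 probe sets that reached the floor (red, knockout; blue, wild type; open triangles, lower bounds; dashed lines, 2-fold). Cd14 and Ly96 reach the 2-fold line in both genotypes, Tlr2 lies at 0.94 in knockout cells and passes it in wild-type cells with 1.31, and the 3 Tlr4 probe sets fall on both sides of 0.

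The scale of these differences depends on how the arrays are scaled. The deposited signals share 1 trimmed mean per array. On the poly-A spike-in scale the median of all genes moved by -0.56 in knockout and -0.52 in wild-type cells, and 3.20% of genes were then higher and 26.2% lower in knockout cells, 3.52% and 25.1% in wild-type cells. Cd14 then had 0.91 in knockout and 0.74 in wild-type cells, Ly96 0.59 and 0.43, and Tlr2 0.33 and 0.74, all still above 0 and none called. The brightest Tlr4 probe set had -1.11 and -1.54 and was called lower in both genotypes. Measured from that moved median, Cd14 stood at 1.52 and 1.29, Ly96 at 1.19 and 0.98, Tlr2 at 0.94 and 1.28, and Tlr4 at -0.51 and -0.99. These lie close to the deposited differences by construction, since the poly-A scale moves every gene of an array by the same amount. Quantile normalization and median scaling moved the median by 0.06 and 0.10 in knockout and by 0.10 and 0.23 in wild-type cells. The shares of genes called higher and lower were then 7.73% and 6.66%, and 7.75% and 6.58%, in knockout cells, and 8.70% and 7.37%, and 10.8% and 6.47%, in wild-type cells. Under median scaling Tlr2 had 1.05 in knockout cells and was called there too.

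**Figure D3:**
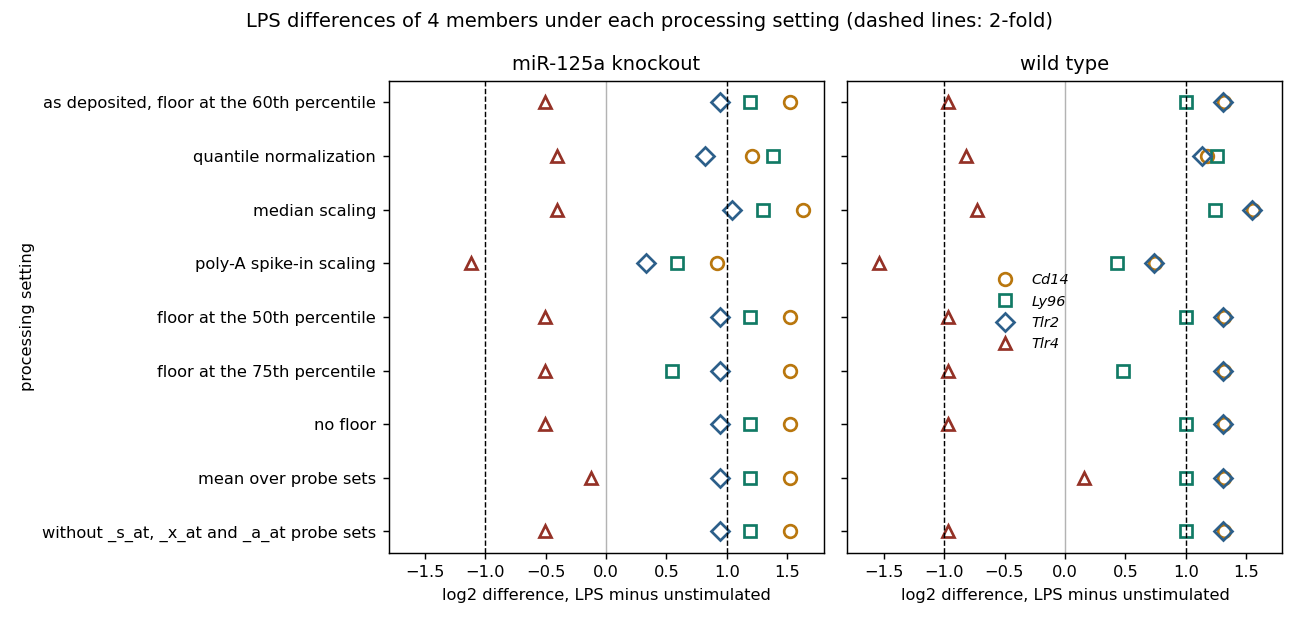
Log2 difference, LPS minus unstimulated, of Cd14, Ly96, Tlr2 and Tlr4 (brightest probe set) under the deposited scaling and the 8 alternatives (left panel, knockout; right panel, wild type; dashed lines, 2-fold). Cd14, Ly96 and Tlr2 stay above 0 in each setting, and on the poly-A scale they lie between 0.33 and 0.91.

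The second question was whether loss of miR-125a goes with other levels of these receptors. None of the 8 measured genes differed 2-fold between knockout and wild-type cells, after LPS (1.24% of 9262 genes called in either direction) or unstimulated (1.01% of 9401). After LPS the differences, knockout minus wild type, ran from -0.13 for Tlr13 to 0.34 for Tlr4, and in unstimulated cells from -0.43 for Tlr6 to 0.31 for Tlr2. Differences of this size were common. At least as large a difference was seen in 24.6% of all genes for Tlr4 after LPS, and unstimulated in 12.8% for Tlr6, 19.6% for Tlr7 and 23.3% for Tlr2.

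With the deposited scaling the co-receptors were nearly equal in the 2 genotypes after LPS, with 0.0050 for Cd14 and 0.068 for Ly96. They stood at -0.20 and -0.13 unstimulated. Cd14 after LPS had -0.21 under quantile normalization, -0.15 under median scaling and 0.08 on the poly-A scale. Tlr2 had -0.05 after LPS and 0.31 unstimulated. The brightest Tlr4 probe set had 0.34 after LPS and -0.12 unstimulated, and 1418162_at had -0.02 and 0.13, the opposite sign in both states. Probe set 1442827_at had the signs of the brightest, with a bound of 0.39 after LPS and -0.30 unstimulated. Tlr7 had 0.25 after LPS and -0.35 unstimulated, Tlr6 0.14 and -0.43, and Tlr1 0.01 and -0.13. After LPS 6 of the 8 genes lay above the median of all measured genes with the deposited, median and poly-A scalings, and 5 under quantile normalization. In unstimulated cells 7 of 8 lay below that median under each of these 4 scalings. Median and poly-A scaling move every gene of an array by the same amount. Apart from the floor they could therefore not change these counts, and quantile normalization alone could.

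**Figure D4:**
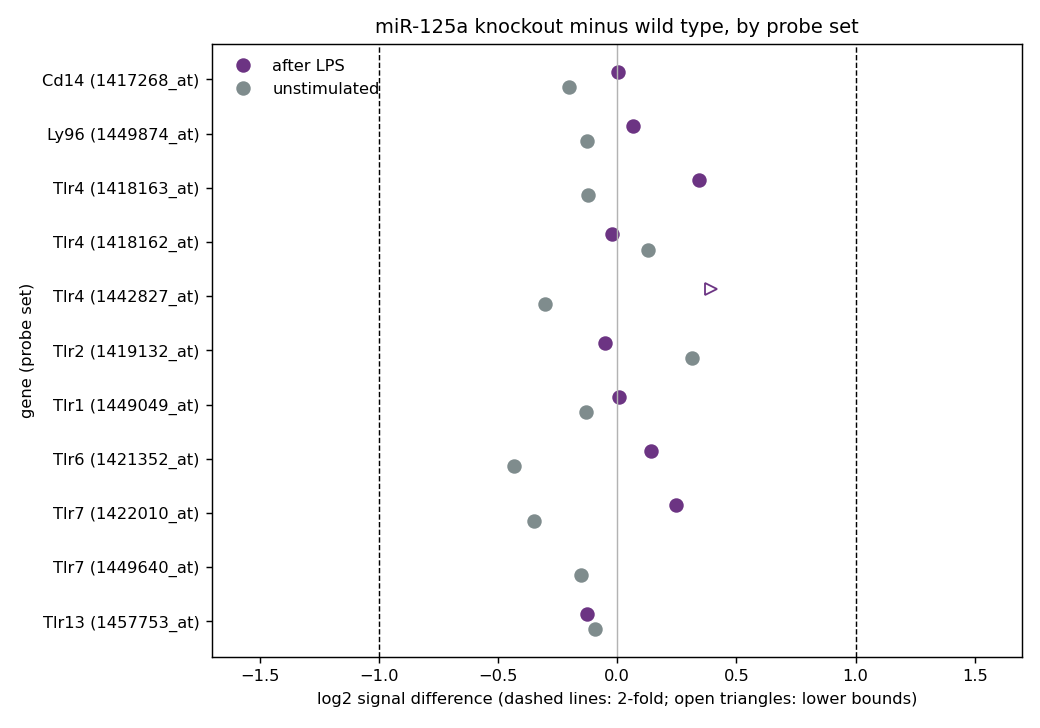
Log2 signal difference, knockout minus wild type, of the 11 probe sets that reached the floor (purple, after LPS; grey, unstimulated; open triangle, lower bound; dashed lines, 2-fold). All points lie inside the 2-fold lines, the value farthest from 0 being -0.43 for Tlr6 in unstimulated cells.

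Set against each other, the LPS responses of the 2 genotypes did not differ 2-fold for any of the 8 genes, where 1.66% of 8156 genes did. The response of knockout cells minus that of wild-type cells was 0.60 for Tlr7, 0.57 for Tlr6, 0.47 for the brightest Tlr4 probe set and -0.36 for Tlr2. At least as large a difference was found in 10.1%, 11.1%, 17.8% and 27.1% of all genes. Cd14 had 0.21, Ly96 0.19, Tlr1 0.14 and Tlr13 -0.03. Tlr4 probe set 1418162_at gave -0.15, so the sign for Tlr4 turns with the probe set.

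Other genes of receptor handling were followed next. Beside the list counts below, 6.62% of all measured genes were higher after LPS and 7.99% lower in knockout cells. In wild-type cells these shares were 7.29% and 9.69%. Of 5 further Toll-like receptors 4 had a probe set, and Tlr3, Tlr8 and Tlr12 lay under the floor on all arrays. Tlr5, the flagellin receptor, passed it on the unstimulated wild-type array alone (6.87). Among accessory and LPS-binding proteins 0 of 6 were higher and 2 lower in knockout cells, with a median of -0.70, and 0 of 7 higher and 2 lower in wild-type cells, with a median of -0.41. Ly86, which encodes MD-1, the MD-2 relative that pairs with CD180, had 9.29 after LPS and 11.13 unstimulated in knockout cells, and 9.09 after LPS and 10.78 unstimulated in wild-type cells, differences of -1.84 and -1.69. These were opposite in sign to those of Ly96. Lbp, the LPS-binding protein that passes LPS to CD14, had -1.50 and -1.37, and bounds of -1.83 and -2.09 in its second probe set. Cd180, the receptor partner of MD-1, exceeded the floor on the unstimulated wild-type array alone.

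The genes for folding, traffic and cleavage of Toll-like receptors were called about as often as all measured genes. In knockout cells 1 of 16 was higher and 1 lower, and in wild-type cells 1 of 17 was higher and 1 lower. The higher one was Slc15a3, an endolysosomal peptide transporter, with 2.20 in knockout and 2.40 in wild-type cells. The lower one was Rab7b, a late-endosome GTPase, with -1.08 in knockout cells and a bound of -1.34 in wild-type cells. Unc93b1, which carries TLR7, TLR9 and TLR13 to endosomes, had 0.88 and 0.44, and Hsp90b1, the endoplasmic chaperone that most Toll-like receptors need, had -0.90 and -0.46.

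Proximal adaptors and kinases were higher in 3 of 12 in each genotype, and lower in 0 in knockout and 1 in wild-type cells. Irak3, a kinase-like inhibitor of the pathway, had 3.58 in knockout and 3.75 in wild-type cells, and Pik3ap1, an adaptor that couples the receptors to PI3-kinase, had 2.87 and 3.12. The second probe set of Pik3ap1 gave bounds of 1.64 and 0.77. Irak2, a kinase below MyD88, had 2.82 and 2.83. Sigirr, a receptor that dampens the signal, had bounds of -0.67 and -1.03. Myd88 itself had 0.74 and 0.66, short of the call.

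Receptors of other families were higher in 6 of 11 in knockout and 6 of 12 in wild-type cells, and lower in 0 of either. Among them were Nlrp3, an inflammasome sensor (2.02 and 1.93), and the C-type lectin genes Clec4n (1.57 and 1.92) and Clec4e (1.40 and 1.30). Ifih1, a sensor of double-stranded RNA, had 1.47 and 1.29, and Nod1, a peptidoglycan sensor, 1.15 and 1.09. The second probe set of Clec4e had 1.24 in knockout and 0.75 in wild-type cells. In none of these 5 lists was a gene called between the genotypes, at either time.

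**Figure D5:**
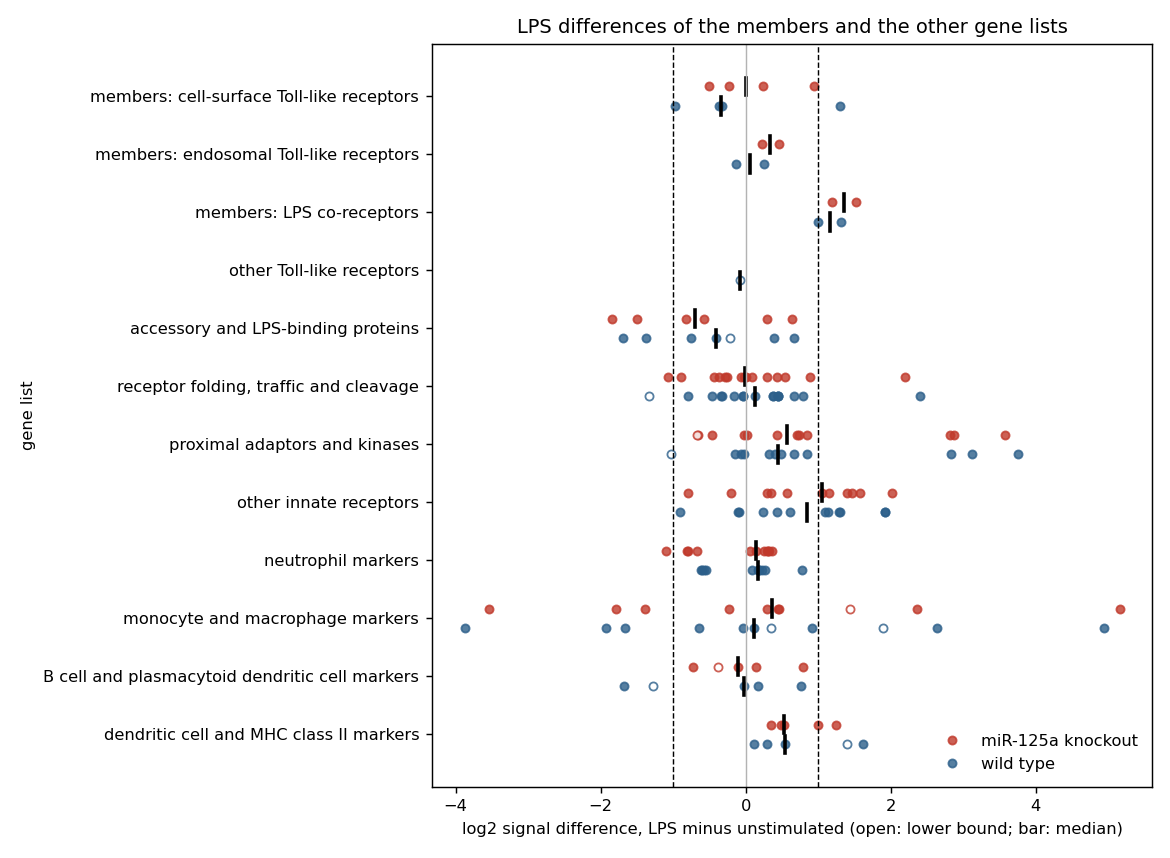
Log2 difference, LPS minus unstimulated, of each measured gene (point; open, lower bound) in the members and the 9 other lists, knockout (red) above wild type (blue), with each list's median as a black bar and dashed lines at 2-fold. The 2 co-receptors lie at or beyond the upper line in both genotypes, while Ly86 and Lbp, in the accessory list, lie below the lower one.

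Monocytes and macrophages also express Cd14, Tlr2, Tlr4 and Ly96, and their markers were measured beside them. Of 15 marker genes 12 had a probe set and none was listed at 0 on any array. Their summed unlogged signal was 45406 after LPS and 29762 unstimulated in knockout cells, and 46357 after LPS and 29832 unstimulated in wild-type cells. In knockout cells 3 of 10 were higher and 3 lower, and in wild-type cells 3 of 11 were higher and 3 lower. Adgre1, which encodes a macrophage surface antigen, had 5.16 and 4.94, and Csf1r, the macrophage growth factor receptor, had 2.36 and 2.64. Ccr2, a receptor of inflammatory monocytes, had -3.54 and -3.88, and F13a1, a coagulation factor chain, had -1.79 and -1.93. Cx3cr1, the fractalkine receptor, had bounds of 1.43 and 1.90. Mrc1, a macrophage lectin, was under the floor throughout. No monocyte marker differed 2-fold between genotypes. The part of such cells in the differences of Cd14, Ly96 and Tlr2 was not tested. Of 11 markers of B cells and plasmacytoid dendritic cells, which use TLR7 and TLR9, 6 were under the floor on all arrays, among them Cd79a, Ms4a1 and Siglech. In this list 0 of 5 were called in knockout cells, and 0 were higher and 2 lower in wild-type cells, namely Tcf4 (-1.68) and Ccr9 (a bound of -1.28). The other probe sets of Tcf4 that reached the floor lay between -1.40 and -0.28 there. Dendritic cell and MHC class II markers were higher in 2 of 5 in both genotypes, H2-Ab1 having 1.0004 in knockout and 1.61 in wild-type cells and Itgax 1.25 in knockout cells and a bound of 1.39 in wild-type cells. The H2-Ab1 value in knockout cells lies at the threshold, and its other probe sets gave 0.50 and a bound of 0.19 there, and bounds of 1.61 and 0.76 in wild-type cells.

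Genes with the profile closest to each called gene were sought among 7974 named genes above the floor on all 4 arrays. Uncharacterised symbols, ending in Rik or starting with Gm or LOC and digits, were left out. Closeness was the smallest Euclidean distance between log2 values centred on each gene's own mean over the 4 arrays. For Cd14 the closest genes were Ifih1 (distance 0.04), Ypel3, of a zinc-binding family (0.07), and Asns, asparagine synthetase (0.09). For Ly96 they were Wdfy3, an autophagy adaptor (0.05), Vps26c, a retriever subunit (0.08), and Dok1, a docking protein (0.09). For Tlr2 they were Eml4, a microtubule-binding protein (0.01), Chil1, a chitinase-like protein (0.05), and Blvrb, biliverdin reductase B (0.08). With 4 arrays and so many genes, close profiles are easily found, and the distances are a description.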

How the data were processed

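Expression was measured on 4 Affymetrix arrays, 1 per group, each with pooled RNA of 3 experiments per the series design text. Per the submitters' processing notes the deposited values come from MAS5, and they are log2 signals; neither its version nor its target is stated there. Unlogged, their trimmed mean (2% off each end) was 500.003 or 500.004 on every array, so arrays had been scaled to 1 target. No read depth exists for arrays. Symbols came from the platform annotation supplied for the series; 932 probe sets with several symbols and 9211 not listed took no part, so that 18193 genes remained.

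The probe set with the highest mean over the arrays stood for its gene. Values under the floor were set to it, a gene counted as measured where either of the 2 arrays compared exceeded the floor, and differences were called from 2-fold. With 1 array per group no p-value was computed. The poly-A scale used the mean of 22 of 24 control probe sets, those above the floor on all arrays. Genes named from a list are its measured members with a 2-fold difference in any comparison, largest first, at most 5 per list, and for each called receptor gene the 3 closest profiles; Myd88, Unc93b1, Hsp90b1, Tlr5, Cd180 and markers under the floor were added after their values were seen. The receptor genes and lists were chosen with earlier results of these data known. The 8 alternatives and their effects are given at the end. The difference step was run on simulated data, with changes well past 2-fold in genes far above the floor. That run checked the code only and does not bear on differences near 2-fold or near the floor. Analyses used Python 3.11.15, pandas 2.3.3 and numpy 2.4.6.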

Additional observations from a re-analysis of the deposited data

Results flagged for a closer look

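The pairs below are given because the 2 genotypes, or the 2 LPS states, had differences of opposite sign under the same contrast, with 1 array per group and no test of the difference. The LPS difference of Tlr6 was 0.24 in knockout and -0.33 in wild-type cells, and that of Tlr7 was 0.46 and -0.14. For knockout minus wild type, values after LPS and unstimulated were 0.34 and -0.12 for Tlr4, -0.050 and 0.31 for Tlr2, 0.14 and -0.43 for Tlr6, and 0.25 and -0.35 for Tlr7. They were 0.0050 and -0.20 for Cd14, 0.068 and -0.13 for Ly96, and 0.0060 and -0.13 for Tlr1. All 18 values are under 2-fold, and some of those for Tlr4 and Tlr7 turn sign with the probe set. Several pairs lose their opposite signs with the scaling. Under median scaling, knockout minus wild type after LPS was -0.15 for Cd14, -0.09 for Ly96, -0.15 for Tlr1 and -0.01 for Tlr6. That of Tlr2 was 0.007 under quantile normalization and 0.02 on the poly-A scale. On the poly-A scale the LPS differences in knockout and wild-type cells were -0.37 and -0.90 for Tlr6 and -0.15 and -0.71 for Tlr7. Those of Tlr7 were also of 1 sign under quantile normalization (0.65 and 0.14) and median scaling (0.56 and 0.11). The genotype pairs of Tlr4 and Tlr7 kept opposite signs under all of these scalings, though unstimulated Tlr4 on the poly-A scale was only -0.010. In the mean over probe sets both pairs lost them, with 0.47 after LPS and 0.75 unstimulated for Tlr4. Tlr7 had -0.15 and -0.30 in that mean.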

How the results depend on the processing

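Of 104 counts and medians recomputed under the 8 alternatives, 98 stayed within 1.5 times (medians within a 1.5-fold change). Many of these could hardly move. Leaving out probe sets with the suffixes _s_at, _x_at and _a_at changed no value of the 8 measured genes. The floor at the 50th percentile and no floor left those values unchanged too and only brought in Tlr9. The 6 results that moved concern the LPS response. On the poly-A spike-in scale 0 of the 8 measured genes were higher and 1 (Tlr4) lower in knockout cells, with a median of -0.26. In wild-type cells 0 were higher and 1 (Tlr4) lower, with a median of -0.51. The wild-type median thus turned sign from 0.06 as well, though its shift stayed just inside the 1.5-fold limit. This scaling moves every gene of an array by the same amount. With the floor at the 75th percentile 1 gene, Cd14, was higher in knockout cells, because Ly96 unstimulated then lies at the floor. In wild-type cells 2 were then higher instead of 3, as Ly96 lost its call there too. In the mean over probe sets Tlr4 after LPS had -0.12 in knockout and 0.16 in wild-type cells, and 0.75 for knockout minus wild type in unstimulated cells, where the dim probe set 1430695_at weighs in. Tlr7 in that mean had -0.25 for LPS minus unstimulated in knockout cells and -0.15 for knockout minus wild type after LPS. No gene was called between genotypes, or between the responses, under any of the 8 alternatives. No paired analysis was possible because each group holds 1 array. Dim probe sets such as that of Tlr9 limit what can be said of these receptors.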
